A study of Mus musculus with 2 samples.

Results

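Integrins are the receptors by which cells hold their matrix, and the 10 mouse integrin subunits described here are Itga1, Itga2, Itga3, Itga5, Itga6, Itga7, Itgav, Itgb1, Itgb3 and Itgb5. They were chosen by name, as the genes of that list with a probe annotated to that gene alone, and not by their values. All 10 had a value on at least 1 of the 2 arrays, 9 at 6 h and 10 at 12 h, out of 10791 named genes in all. The study measured how shear affects flexor tendon cells. On the first array, RNA of pooled cells sheared for 6 h (Cy5) was hybridised with RNA of pooled control cells of the same time (Cy3). On the second, RNA of cells sheared at 50 rpm for 12 h (Cy5) was hybridised with RNA of control tenocytes of 12 h (Cy3). Tenocytes are the fibroblast-like cells of tendon. The labels give no strain, age or genotype, no shear rate for the 6 h cells, and name pooling only at 6 h.

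Each integrin is a pair of 1 alpha and 1 beta subunit, and the pair decides the ligand. Both chains cross the membrane once, bind matrix outside the cell and connect, through talin and kindlin on the beta tail, to the actin cytoskeleton inside it, so that they carry force in both directions. In tendon fibroblasts the pairs of Itgb1 with collagen-binding and fibronectin-binding alpha subunits are the best known, since type I collagen is the main protein of the tissue.

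Every value below is a log2 ratio, likely of sheared over control, after the median of all spots was subtracted from each array. The base of the logarithm is assumed, and the direction rests on the dyes in the labels and on the red-over-green habit of the image database they name; were it the other way, every higher value would be a lower one. There was 1 array per time point and no dye swap, so no difference could be tested, and "higher" and "lower" describe these arrays. A gene's value is the median of its probes, and higher or lower is counted where a gene lies at least 1.5-fold from 0. The error used within an array is the SD between probes of a gene, which was 0.738 at 6 h and 0.855 at 12 h when pooled over 5396 and 5579 genes. Repeat spots of the same clone gave pooled SDs of 0.900 and 0.997. These are ratios of whole cultures, in which fewer cells of a type and less RNA per cell cannot be told apart.

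Integrin subunits did not read as one group. Itgb3, Itga6 and Itgav were lower on both arrays, and Itga2 and Itgb1 were higher on both. At 6 h, 4 of the 9 measured subunits were at least 1.5-fold lower, where 31.3% of all 10346 genes were, and 2 were at least 1.5-fold higher, where 18.2% of all genes were. At 12 h, 3 of 10 were lower, against 33.1% of all 10731 genes, and 2 were higher, against 24.4%. The median of the subunits was -0.30 at 6 h and -0.01 at 12 h, against -0.11 and -0.14 over all genes. With a line at 2-fold, 2 of 9 were lower at 6 h, against 18.8% of all genes, and none was higher, against 6.2%. At 12 h 3 of 10 were lower by that measure, against 20.5%, and 1 was higher, against 14.5%. Counts of this size lie near the background, so the list as a whole did not stand out on either array, and what follows concerns its individual members.

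Short stretches of regulatory sequence are shown for the members that were past 1.5-fold on both arrays and had an entry in the promoter table. They are the 250 bases before the transcript start, read 5′ to 3′ on the gene's strand (RefSeq, GRCm38.p6). Capitals mark a match to GGGCGG, the core of an Sp1 site, or GGAATG, the core of a TEAD site, on either strand.
Itga2 (chr13:114932101-114932350, minus strand): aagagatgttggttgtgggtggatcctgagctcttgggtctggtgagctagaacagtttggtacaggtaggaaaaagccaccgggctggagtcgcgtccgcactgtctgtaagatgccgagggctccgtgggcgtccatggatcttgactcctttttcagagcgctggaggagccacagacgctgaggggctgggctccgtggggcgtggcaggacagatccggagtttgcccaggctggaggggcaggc
Itgb1 (chr8:128685404-128685653, plus strand): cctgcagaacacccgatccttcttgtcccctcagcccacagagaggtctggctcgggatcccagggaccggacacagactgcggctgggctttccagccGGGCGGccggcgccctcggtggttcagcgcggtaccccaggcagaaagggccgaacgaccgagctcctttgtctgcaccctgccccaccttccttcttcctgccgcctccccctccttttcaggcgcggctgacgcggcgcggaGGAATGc
Itgav (chr2:83724147-83724396, plus strand): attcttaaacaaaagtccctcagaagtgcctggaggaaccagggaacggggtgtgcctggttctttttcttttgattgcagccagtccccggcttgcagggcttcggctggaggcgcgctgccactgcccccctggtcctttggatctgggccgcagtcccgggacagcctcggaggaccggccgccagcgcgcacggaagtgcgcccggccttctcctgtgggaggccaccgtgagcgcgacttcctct

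In all, 5 motifs were searched on both strands of these windows: AP-1 (TGANTCA), Sp1 (GGGCGG), the TATA box (TATAAA), the CArG box of serum response factor, and TEAD (GGAATG). The Itgb1 window held 1 Sp1 match, starting 151 bases before the transcript start, and 1 TEAD match, starting 7 bases before it. Among all 32851 promoter windows of the same length, 32.7% held the Sp1 core and 12.6% the TEAD core. The windows of Itga2 and Itgav held none of the 5 motifs. The Itgav window precedes a later transcript start and lies inside the annotated gene, which begins at 83722303. The bases before that first start were not searched. Of the 10 subunits 7 had an entry, and none of their 8 windows held an AP-1, TATA or CArG match, which 6.75%, 12.4% and 1.47% of all windows did. Sp1 matches also lay in windows of Itga3, Itga5 and Itgb5, which stayed within 1.5-fold on both arrays. The GC content was 60.8% for Itga2, 68% for Itgb1 and 64.4% for Itgav. A match describes letters in a window and does not show that a factor binds there.

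Of the collagen-binding alpha subunits, Itga2, which pairs with Itgb1 to bind fibrillar collagen, had the highest value of the measured subunits at both times. Its single probe read 0.83 at 6 h and 1.85 at 12 h, which are 1.78-fold and 3.62-fold higher. On the 12 h array 3.55% of all genes read higher than Itga2, and on the 6 h array 10.2% did. Itga1, the other collagen-binding alpha subunit here, which prefers network-forming collagen, was measured at 12 h only and stood at 0.19 on 1 probe. At 12 h Itga2 thus read above Itga1, each on 1 probe. The pooled SD of 0.855 is that of 1 probe, and a difference between 2 probes has a larger SD. The gap was not tested.

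**Figure D1:**
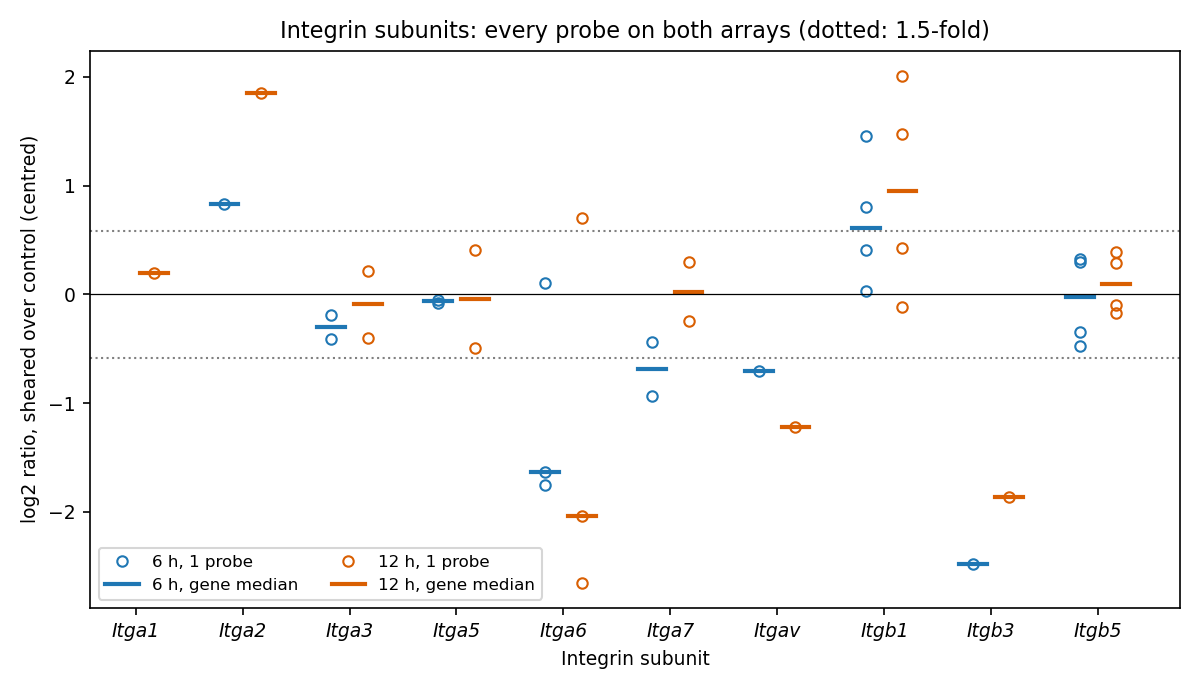
Log2 ratios of sheared over control (vertical axis, centred on each array's median) for every probe of the 10 integrin subunits (horizontal axis) at 6 h (blue) and 12 h (orange). Open circles are probes, bars are gene medians and dotted lines mark 1.5-fold; Itgb3, Itga6 and Itgav lie below the lower line at both times, Itga2 and Itgb1 above the upper one, and the probes of Itga6 and Itgb1 spread widely.

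All 3 laminin-binding alpha subunits had values below 0 at 6 h, as at least 54.1% of all genes did, whose median was -0.11. At 12 h Itga6 lay well below the other 2. Itga6, known from epithelial hemidesmosomes and from laminin adhesion of many other cells, stood at -1.63 at 6 h (probe SD 1.04, 3 probes) and -2.03 at 12 h (probe SD 1.78, 3 probes), or 3.10-fold and 4.10-fold lower. Its probes did not move as one: 2 read -1.75 and -1.63 at 6 h and -2.03 and -2.65 at 12 h, while the other one read 0.10 and 0.70. The gene value therefore follows 2 probes of 3, and the third lies on the other side of 0 on both arrays. Itga7, the main laminin-binding alpha subunit of muscle, stood at -0.69 at 6 h (probe SD 0.35, 2 probes), 1.61-fold lower, and at 0.03 at 12 h (probe SD 0.38). Its 2 probes read -0.94 and -0.44 at 6 h, and -0.24 and 0.29 at 12 h, so both lay higher at the later time, by 0.69 and 0.73. Itga3, which binds laminin together with the tetraspanin Cd151, stayed within 1.5-fold, at -0.30 (probe SD 0.15, 2 probes) and -0.09 (probe SD 0.43).

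The alpha subunits that recognise the RGD sequence of fibronectin and vitronectin differed from each other. Itga5, the alpha chain of the classical fibronectin receptor, stood at -0.06 at 6 h and -0.04 at 12 h. Its 2 probes read -0.08 and -0.05 at 6 h (probe SD 0.02), and 0.41 and -0.49 at 12 h (probe SD 0.64), where they lay on opposite sides of 0. A further probe, annotated to both Itga5 and Got2 and left out here, read 1.13 at 6 h and 2.10 at 12 h. With probes of several symbols kept, Itga5 stood at -0.05 at 6 h and 0.41 at 12 h. Itgav, which pairs with several beta subunits and with them also activates latent TGF-beta, read -0.71 at 6 h and -1.22 at 12 h on its single probe, or 1.63-fold and 2.33-fold lower. At 12 h 15.6% of all genes read lower than Itgav.

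Among the beta subunits, 1 read high, 1 low and 1 near 0 at each time. Itgb1, the shared partner of most alpha subunits listed here, stood at 0.61 at 6 h (probe SD 0.61, 4 probes) and 0.95 at 12 h (probe SD 0.97, 4 probes), or 1.52-fold and 1.93-fold higher. The 4 probes read 1.46, 0.40, 0.81 and 0.03 at 6 h and, in the same order, 1.48, 0.43, 2.01 and -0.12 at 12 h. Of these probes 2 were past 1.5-fold on both arrays and the other 2 on neither, which puts the 6 h median just outside the 1.5-fold line. Itgb3, the beta chain of the vitronectin receptor and of the platelet fibrinogen receptor, had the lowest value of the 9 subunits at 6 h. Its single probe read -2.48 at 6 h and -1.87 at 12 h, or 5.57-fold and 3.65-fold lower, and 2.86% and 6.58% of all genes read lower still. Itgb5, another partner of Itgav in vitronectin binding, stood at -0.03 (probe SD 0.42, 4 probes) and 0.10 (probe SD 0.28), and none of its 4 probes reached 1.5-fold on either array. They ran between -0.48 and 0.33 at 6 h and between -0.17 and 0.39 at 12 h.

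The differences between probes of a subunit recurred from one array to the other. Over the 17 probes of the 6 subunits with 2 or more probes, the deviation of a probe from its gene's mean had a Pearson correlation of 0.87 between 6 h and 12 h. The points share their spots and clones on both arrays, and 7 of them are probes of Itga6 or Itgb1. Over 15476 probes of 5340 genes on both arrays the same correlation was 0.55. Of the 21 probes, 20 were measured at 6 h, of which 5 lay 1.5-fold or more below 0 and 3 above, against 27.3% and 24.2% of all 20593 probes with 1 symbol. At 12 h, 4 of 21 lay below and 4 above, against 30.7% of 21387 probes in each direction.

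**Figure D2:**
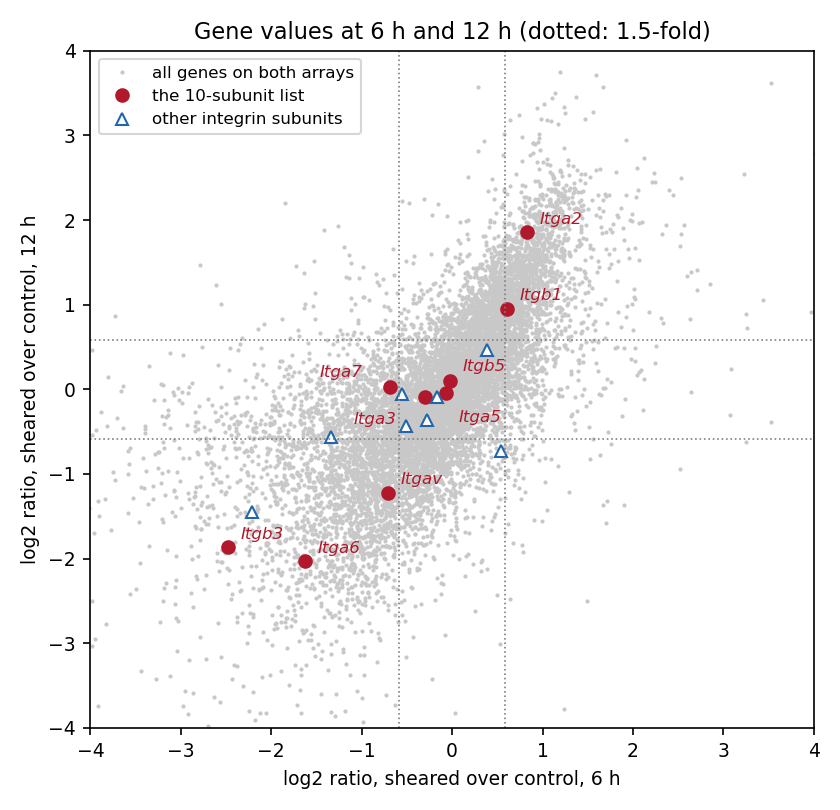
Gene log2 ratios at 6 h (horizontal axis) and 12 h (vertical axis) for all genes on both arrays (grey), the 9 subunits measured at both times (red, named) and other integrin subunits (open triangles), with dotted lines at 1.5-fold. Itgb3, Itga6 and Itgav lie in the lower left field and Itga2 and Itgb1 in the upper right one; 86 genes lie outside the axes.

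The arrays of 6 h and 12 h placed most subunits on the same side. Of the 9 subunits on both arrays, 3 were lower and 2 were higher by 1.5-fold at both times, against 20.5% and 13.8% of the 10286 genes on both arrays. Taking 12 h minus 6 h, 3 subunits read at least 1.5-fold higher at 12 h, where 24.9% of all genes did, and none read 1.5-fold lower, where 17.4% did. These 3 were Itga2 with a difference of 1.02, Itga7 with 0.71 and Itgb3 with 0.61. Itgav (-0.52) and Itga6 (-0.40) were the 2 subunits with a negative difference, and the other 4 lay between 0.02 and 0.35. The median difference was 0.21 over the 9 subunits and 0.12 over all genes. Combining the pooled probe SDs of the arrays, the difference of a gene with 1 probe has an SD of 1.13, and no subunit differed between times by more than that. This SD takes the probe deviations of the arrays as independent, although they were positively correlated. It is therefore too large for the same probe on both arrays, and also for subunits with several probes. That no subunit exceeded it cannot show that none differed between the times.

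**Figure D3:**
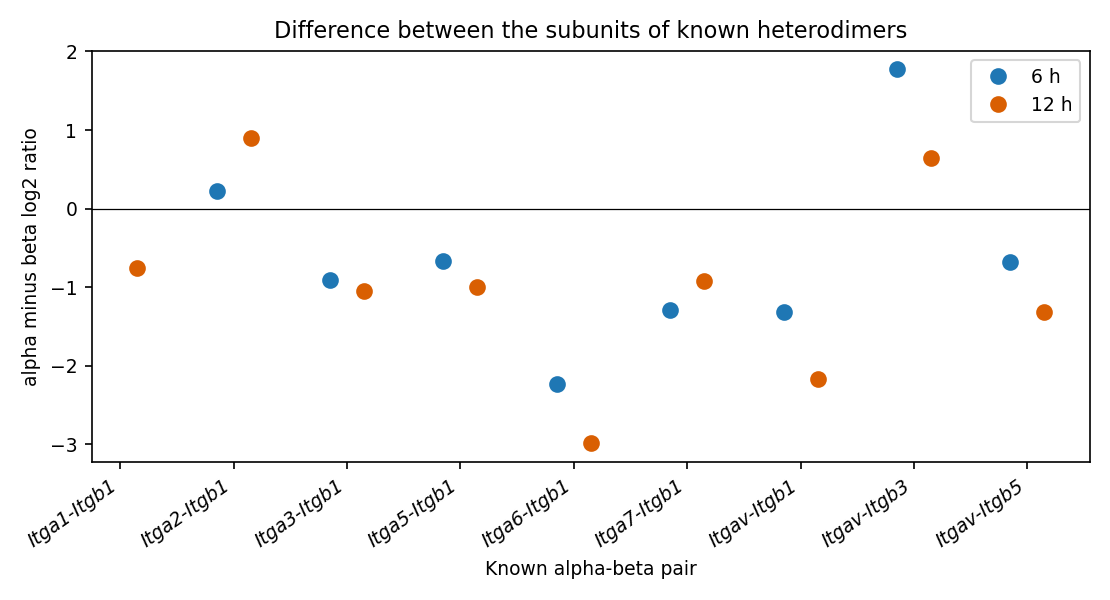
Alpha minus beta difference of the log2 ratios (vertical axis) for known integrin pairs (horizontal axis) at 6 h (blue) and 12 h (orange), each point being 1 array. Most pairs with Itgb1 lie below 0, lowest for Itga6, Itga2 lies above its partner Itgb1, and Itgav lies above Itgb3 but below Itgb5.

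The ratios of 2 chains of a receptor can be set against each other on the same array, and subtracting 1 median per array does not alter such a difference. With each print block centred on its own median instead, the differences shifted by at most 0.24 and none of the 17 changed sign. Itga2 read above its partner Itgb1 by 0.23 at 6 h and by 0.90 at 12 h. All other alpha subunits measured read below Itgb1: Itga6 by the most, with differences of -2.24 at 6 h and -2.99 at 12 h, and Itga5 by the least at 6 h, with -0.67. At 12 h Itga1 was the nearest below it, with -0.76. Itgav stood 1.77 above Itgb3 at 6 h and 0.65 above it at 12 h. It stood below Itgb5, with differences of -0.68 and -1.32. Both chains of the vitronectin receptor made of Itgav and Itgb3 were lower at both times, and both chains of the collagen receptor made of Itga2 and Itgb1 were higher. That call for Itga2 and Itgb1 rests on the centring, since without it Itgb1 was within 1.5-fold at both times and Itga2 at 6 h. In the laminin receptor made of Itga6 and Itgb1, the alpha chain was lower and the beta chain higher. These are differences in transcript ratios and say nothing of receptor protein at the cell surface.

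Integrin subunits outside the list were sparsely measured, 8 of 16 at 6 h and 10 of 16 at 12 h. None was 1.5-fold higher on either array, where 18.2% and 24.4% of all genes were, and 2 were lower on each, where 31.3% and 33.1% were. Their median was -0.39 at 6 h and -0.23 at 12 h. These counts moved with the processing: with print blocks centred 2 were higher at 12 h (Itgal at 0.69 and Itgam at 0.64), and with the mean of probes 1 was higher at 6 h and 1 lower at 12 h. Itgb8, which pairs with Itgav and activates TGF-beta, stood at -2.22 at 6 h and -1.45 at 12 h on 1 probe, low like Itgb3. Itga9, a receptor subunit for tenascin and other ligands, stood at -1.33 and -0.57 on 1 probe. Itga11, the fibroblast subunit for fibrillar collagen, stood at -0.28 and -0.37 on 1 probe, unlike the high reading of Itga2. The epithelial laminin subunit Itgb4 stood at -0.17 and -0.09 on 1 probe. Among the leukocyte subunits, Itgb2 stood at -0.56 and -0.05 and Itgam at 0.39 and 0.46, while Itgal (0.52) and Itgax (0.26) were measured at 12 h only, each on 1 probe. Itgae stood at -0.51 (probe SD 1.05, 2 probes) and -0.44 (probe SD 2.20). Itgb7 stood at 0.55 and -0.73 over 3 probes, whose SD at 6 h was 3.84.

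**Figure D4:**
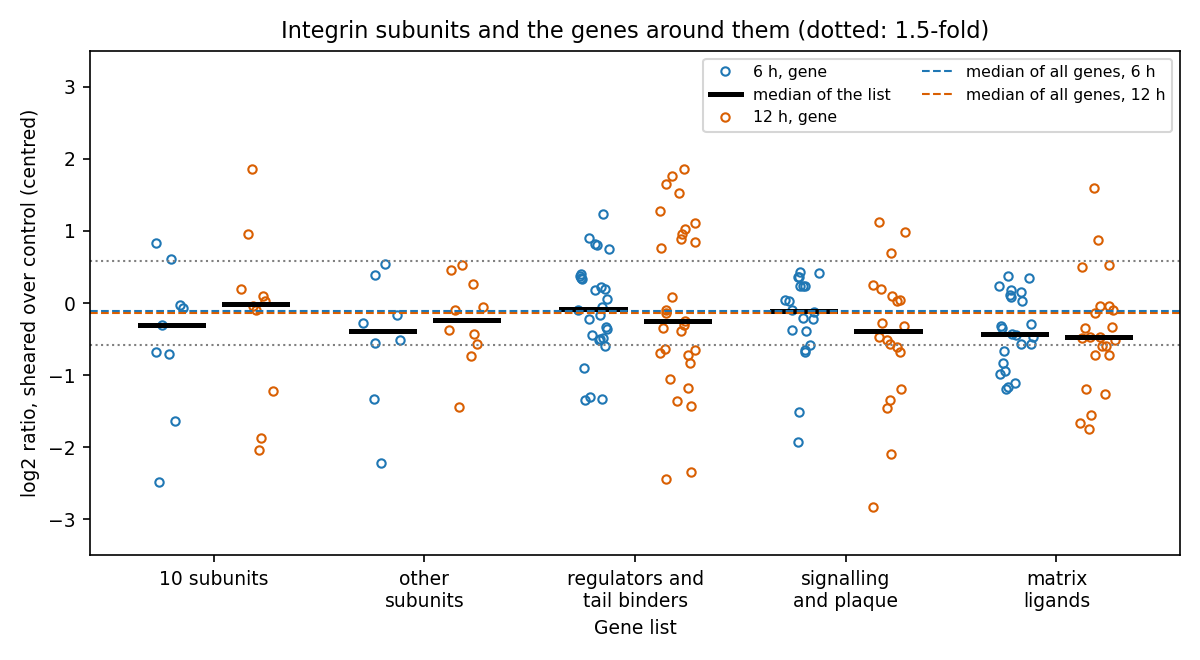
Gene log2 ratios (vertical axis) of the 10 subunits and of 4 lists around them (horizontal axis) at 6 h (blue) and 12 h (orange). Black bars are list medians, dashed lines the medians of all genes and dotted lines 1.5-fold; the regulators at 12 h have 11 genes above the upper line and 11 below the lower one.

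Proteins that bind integrin tails or travel with integrins in the membrane read in both directions. Past 1.5-fold, 5 of 28 read higher and 5 lower at 6 h, and 11 of 29 read higher and 11 lower at 12 h, with medians of -0.08 and -0.25. Over all genes the shares were 18.2% and 31.3% at 6 h and 24.4% and 33.1% at 12 h, and these shares are the background of each list count that follows. Cd63, Bsg, Tns1 and Dab2 are named for their values. They had the largest mean absolute log2 ratios of this list among genes with 2 or more probes on both arrays. Cd63, a tetraspanin, stood at 1.24 (probe SD 0.30, 5 probes) and 1.76 (probe SD 0.34). Bsg, the membrane glycoprotein basigin, stood at 0.74 (probe SD 0.38, 6 probes) and 1.85 (probe SD 0.42). Tns1, tensin 1, which links beta tails to actin, stood at -1.34 (probe SD 0.25, 2 probes) and -1.35 (probe SD 0.30). Dab2, an endocytic adaptor for integrins, stood at -0.44 (probe SD 0.55, 4 probes) and -2.35 (probe SD 1.54). Fermt2, kindlin-2, an activator that binds beta tails, stood at 0.22 (probe SD 0.11, 2 probes) and -0.64 (probe SD 0.05).

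Further regulators are named here after their values were seen. The tetraspanins Cd151, a partner of laminin-binding integrins, Cd9 and Cd81 stood at 1.52 (probe SD 0.18, 3 probes), 1.02 (probe SD 0.21, 3 probes) and 1.28 (probe SD 0.04, 2 probes) at 12 h, whereas Cd82 stood at -0.30 (probe SD 0.45, 4 probes). Proteins known to restrain integrin activation read in both directions at 12 h. Itgb1bp1 stood at 0.96 (probe SD 0.21, 3 probes) and Sharpin at 0.77 on 1 probe, while the filamin Flna, which competes with talin for beta tails, stood at -1.06 (probe SD 0.05, 3 probes) and Dok1 at -0.34 on 1 probe. The talin Tln2 stood at -2.44 on 1 probe. Of the adaptors that join integrin-linked kinase, Lims1 stood at -1.17 (probe SD 0.14, 3 probes), Lims2 at -0.72 (probe SD 0.67, 2 probes), Parva at -0.69 (probe SD 0.10, 2 probes) and Parvb at 0.08 on 1 probe.

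Among signalling and plaque genes, none of 20 measured was 1.5-fold higher and 5 were lower at 6 h. Of all genes 18.2% were higher and 31.3% lower at that time. At 12 h 3 were higher and 7 lower, where 24.4% of all genes were higher and 33.1% lower. The medians were -0.11 and -0.39. The lower counts lie near their shares and the higher counts below theirs, which was not tested. Vcl, Fyn, Arhgap35 and Rock1 were picked by the same rule, for the largest mean absolute log2 ratios of this list. Vcl, vinculin, which reinforces adhesions under force, stood at -0.69 (probe SD 0.22, 2 probes) and -1.19 (probe SD 0.19). Fyn, a Src family kinase, stood at -0.59 (probe SD 0.35, 5 probes) and -1.46 (probe SD 1.07). Arhgap35 stood at -1.51 (probe SD 0.46, 2 probes) and -2.10 (probe SD 1.43). Rock1, a kinase that promotes actomyosin contraction, stood at -1.93 and -2.83, with probe SDs of 1.71 and 2.41 over 7 probes. The 3 genes that were higher at 12 h are named after their values were seen. Arhgef7 stood at 1.13 (probe SD 0.11, 2 probes), Zyx at 0.99 (probe SD 0.61, 4 probes) and Cdc42 at 0.69 (probe SD 0.33, 8 probes).

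The matrix ligands of these receptors had medians of -0.43 at 6 h and -0.48 at 12 h, against -0.11 and -0.14 over all genes. At 6 h none of 23 was 1.5-fold higher and 7 were lower, where 18.2% of all genes were higher and 31.3% lower. At 12 h 2 were higher and 9 lower, where 24.4% of all genes were higher and 33.1% lower. Their lower counts too lie near the background, while their higher counts lie below it, which was not tested. Lamc1, Thbs1, Fn1 and Col5a1 were picked by the same rule, for the largest mean absolute log2 ratios of this list. Lamc1, the laminin gamma chain shared by most laminins, stood at -1.19 (probe SD 0.11, 3 probes) and -1.74 (probe SD 0.27). Lamb1, a laminin beta chain, stood at -0.94 (probe SD 1.71, 5 probes) and -0.73 (probe SD 1.77, 6 probes). The other measured laminin chains are named after their values were seen. They were Lama1 (-0.57 and -0.515), Lama3 (0.37 and -0.48), Lama4 (-0.83 and -1.66), Lama5 (-0.29 and -0.48) and Lamb2 (-0.31 and -0.34). Fn1, fibronectin, stood at -1.16 and -1.26, while the gene value of its receptor subunit Itga5 lay near 0 without the probe shared with Got2. Vtn, vitronectin, stood at -0.67 (probe SD 0.13, 2 probes) and -0.14 (probe SD 1.27, 3 probes). Col1a1, a chain of type I collagen, stood at -0.43 and -0.35 and Col5a1 at -1.10 and -1.19. The other collagens of the list, named after their values were seen, were Col1a2 (0.11 and -0.05), Col3a1 (0.03 and -0.10), Col6a1 (0.09 and -0.04), Col4a1 (0.24 and 0.50) and Col4a2 (-0.34 and -0.60), so that none was 1.5-fold higher. Thbs1, a matricellular ligand of several integrins, stood at -0.99 and -1.56. The 2 ligands that were higher at 12 h, also named after their values were seen, were Mfge8 and Tgfb1. Mfge8 stood at 1.59 on 1 probe and Tgfb1 at 0.87 (probe SD 0.20, 2 probes).

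The cell type named in the labels could not be checked for presence, because a ratio does not show whether a transcript is there. Of 16 tendon fibroblast markers 9 had a value at 6 h and 10 at 12 h, with medians of 0.03 and -0.22, and the defining factors Scx, Tnmd and Mkx were not among them. Of 14 leukocyte markers, 1 of 8 was 1.5-fold higher and 3 lower at 6 h, and 3 of 9 were higher and 2 lower at 12 h, with medians of -0.08 and 0.46. The shares of all genes were 18.2% higher and 31.3% lower at 6 h and 24.4% and 33.1% at 12 h. Endothelial markers had medians of -0.44 and -0.24 over 8 genes, skeletal muscle markers 0.23 and 0.06 over 9, platelet markers -0.28 and -0.36 over 2, and epithelial markers -0.51 and -0.30 over 10. The part of other cell types in the ratios of Itgb3, Itga6 and Itga7 was not tested.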

How the data were processed

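The data are 2 spotted arrays with 2 colours, 1 per time point. The authors deposited a log2 ratio per spot (base assumed, likely Cy5 sheared over Cy3 control); normalization, background correction and spot filters are not given in the sources used here. The deposited medians were -0.323 at 6 h (39776 of 42624 spots measured) and -0.479 at 12 h (41717 spots). Spot intensities were not used, so depth is unknown, and precision is limited by the small number of arrays.

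Each array was centred on its median (pandas 2.3.3, Python 3.11.15). GEO's platform annotation, looked up in RefSeq's GRCm38.p6 gene table, gave 1 symbol to 21701 spots, several to 1124 and none to 19799. Probes with 1 symbol were summarised per gene by their median. No test was made. Named genes are all integrin subunits with a value, textbook partners where measured, and, from the lists of regulators, signalling genes and ligands, the 4 with the largest mean absolute log2 ratio among genes with 2 or more probes on both arrays. Members and lists were chosen with earlier results of these data known. Alternatives changed the centring, probe summary, probe choice, array scale and fold line. Counting was tested on simulated data with less probe noise than these arrays showed. That test therefore does not give the error rate of the 1.5-fold line here. A planned split by protein length was not made.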

Additional observations from a re-analysis of the deposited data

How the results depend on the processing

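Of the choices tried, only centring and the counting threshold changed which subunits were past the fold. Without centring, the median of the integrin subunits was -0.63 at 6 h and -0.49 at 12 h, with 0 subunits higher at 6 h and 1 at 12 h. Itga2 and Itgb1 were no longer past 1.5-fold at 6 h, nor Itgb1 at 12 h, and Itga3 became lower at 6 h. Leaving out the centring shifts every gene of an array alike, by -0.323 at 6 h and -0.479 at 12 h. No subunit can thereby change its place among all genes. The shares of all genes past 1.5-fold were not counted without centring. At a 2-fold threshold, 0 subunits were higher and 2 lower at 6 h (Itgb3 and Itga6), and 1 was higher at 12 h (Itga2). Over the 6 subunits with 2 or more probes, 1 was higher and 2 lower at 6 h, and 1 was higher and 1 lower at 12 h, by construction, since Itga2, Itgav and Itgb3 rest on 1 probe. Print-block centring, averaging of probes, probes with several symbols kept and arrays scaled to one median absolute deviation moved no subunit across 1.5-fold, and no subunit past 1.5-fold changed sign under any setting. No paired analysis was possible because each time point has 1 array. Itga2, the highest subunit at both times, Itgb3, the lowest at 6 h, and Itgav have no second probe. Brightness over background was not used here, so a dim spot cannot be told from a bright one.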

Other observations

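Repeat spots of a clone were no closer to each other than different clones of a gene. Over 524 clones spotted more than once, under the same sequence record and gene, the pooled SD was 0.900 at 6 h, against 0.721 between different clones of 5260 genes. At 12 h it was 0.997 over 579 clones, against 0.836 over 5423 genes. Itgae is an example among the integrins: both of its spots carry the same record, and they read -1.25 and 0.23 at 6 h and -1.99 and 1.12 at 12 h. The probes of Itgb7, a leukocyte subunit, read 0.55, 4.53 and -3.14 at 6 h and, in the same order, 0.39, -0.73 and -0.80 at 12 h. A value of an integrin on 1 probe, such as that of Itga2, Itgav or Itgb3, can therefore lie as far from its gene's mean as the pooled SDs above. The difference between 2 spots of a gene has a larger SD than that.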
